A study of Mus musculus with 24 samples.

Results

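TRBV12-1, TRBV12-2, TRBV15, TRBV16 and TRBV26 are the 5 variable segments of the mouse T cell receptor β chain that carry the older names Vβ5.2, Vβ5.1, Vβ12, Vβ11 and Vβ3. They were followed here in TCRβ sequences from CT26.CL25 tumors grown in BALB/c mice. The members were chosen by name, as segments whose T cells are known to be deleted in this strain, and every sequence assigned to them was taken. The files named 25 TRBV segments, of which these are 5. Of 104300 sequence rows with a count of at least 2, 3743 carried 1 of the 5 segments. A row is 1 receptor sequence as listed in the deposited tables, with its segments, its CDR3 (the stretch at which V, D and J are joined) and a count.

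T cells that recognise the body's own superantigens too strongly are removed while they mature in the thymus. BALB/c mice carry endogenous copies of the mouse mammary tumor virus (Mtv) that encode such superantigens, and these bind MHC class II together with whole families of Vβ segments, largely regardless of the CDR3. Vβ3, Vβ5, Vβ11 and Vβ12 are among the families known to be removed in this way. A T cell can also keep a failed rearrangement on its other chromosome, out of frame or with a stop codon. Such a sequence makes no receptor chain, so that its V segment is not selected, and it can still be read in RNA.

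The 12 mice were female BALB/c, 7 to 9 weeks old on delivery, and each had a tumor in both flanks. CT26.CL25 is a single clone of the CT26 colon carcinoma line and expresses β-galactosidase. In the time-matched group (mice 6, 12 and 14, untreated) both tumors were taken on day 13. In the other 3 groups 1 tumor was excised on day 9 and the other was harvested on day 20, 11 days later. Per the methods, this surgery was done under anesthesia, with carprofen and buprenorphine given as analgesics, and no surgery is described for time-matched mice. The time-separated mice 4, 17 and 19 received no decitabine. Mice 3, 11 and 20 received low-dose DAC (decitabine, a DNA methylation inhibitor) at 0.5 mg/kg, and mice 7, 10 and 16 received high-dose DAC at 2 mg/kg, on 5 consecutive days from 3 days after surgery, with harvest 4 days after the last dose. Which tumor of a mouse was the earlier is not in the labels, and no direction in time was assigned. The libraries were made from RNA of whole tumors and hold receptor transcripts only, so that cell type markers could not be looked at, and fewer cells with a segment cannot be told apart from less of its RNA per cell.

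Rows without the stop mark of the tables were taken as productive. Among the 28943 marked rows, 68.9% were in frame, had no stop codon and were marked while they held an undetermined base (N-only rows). A further 7525 rows held no N and were out of frame (4778 rows) or had a stop codon in frame (2747 rows), and these are called disrupted. Each of the 24 libraries held between 67735 and 966365 counts, between 949 and 4665 productive rows (median 3259.5) and between 63 and 570 disrupted rows (median 301). The smallest number of disrupted rows was in tumor 2 of mouse 7. The precision of a single tumor's disrupted share is therefore low, and values were averaged over the tumors of a mouse and compared over the 12 mice.

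All 5 segments took a smaller share of productive than of disrupted rows. Together they held 2.73% ± 2.45 of the productive rows and 9.77% ± 4.61 of the disrupted rows (SD, n = 12 mice). Over the 24 tumors their summed productive share ran from 0.831% to 11.5% with a median of 2.03%, and their summed disrupted share from 1.59% to 22.6% with a median of 9.30%. The disrupted share was the higher one in 24 of 24 tumors. In tumor 2 of mouse 7 this rested on 1 disrupted row of 63 (1.59% against 1.37% of productive rows). For single segments, the difference of the shares in percentage points was tested with an exact two-sided sign-flip permutation test over the 12 mice and adjusted by the Benjamini-Hochberg method over the 24 segments with enough rows. This test called 7 segments lower in productive rows (29.2%), and all 5 members were among them. They remained so when any 1 mouse was left out.

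**Figure D1:**
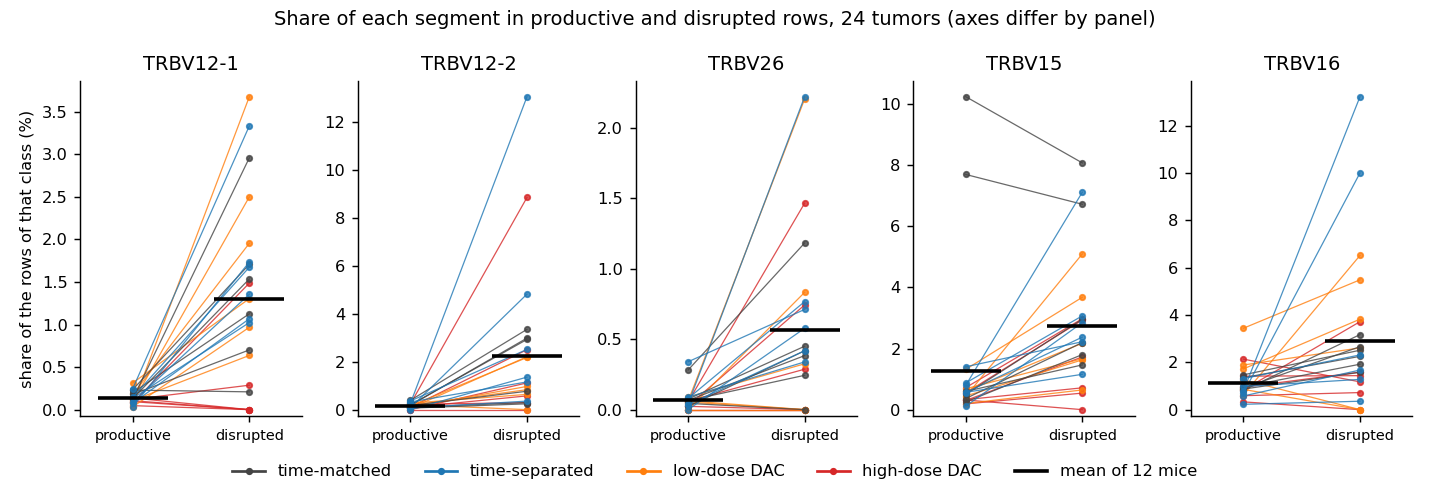
Share of each of the 5 segments (in %) among the productive and among the disrupted rows of a tumor. Each line is 1 of the 24 tumors, coloured by group, and black bars are means of 12 mice. Most lines rise from left to right, between 17 of 24 (TRBV26) and 22 of 24 (TRBV12-2), and those starting highest are mouse 14 for TRBV15, at 7.69% and 10.2%.

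TRBV12-1 and TRBV12-2 are close relatives of the Vβ5 family and lie in the locus on either side of TRBV13-1, a member of the Vβ8 family. The majority bases of the 45 positions just before the CDR3 in the deposited rows are printed to show how little separates the pair, with the differing bases in capitals.
TRBV12-1: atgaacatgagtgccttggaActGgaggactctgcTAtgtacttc
TRBV12-2: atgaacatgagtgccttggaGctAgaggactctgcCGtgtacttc
They differed at 4 of the 45 positions, and the majority start of the CDR3 was the same 13 bases in both. Only 4 of 648 combinations of CDR3 and J segment were listed under both names in 1 library.

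TRBV12-1 had 106 productive rows, between 1 and 11 in a tumor with a median of 4, and 88 disrupted rows, between 0 and 10 with a median of 3.5. Its share of productive rows ran from 0.0334% (mouse 11, tumor 1) to 0.314% (mouse 20, tumor 1), with a median of 0.123%. The share of disrupted rows ran from 0 to 3.68% (mouse 20, tumor 2), with a median of 1.22%. The disrupted share exceeded the productive share in 19 of 24 tumors, and 4 tumors had no disrupted TRBV12-1 row, which allowed shares of up to 0.542% to 4.76%. Over the mice the segment made up 0.133% ± 0.051 of productive and 1.30% ± 0.88 of disrupted rows (SD, n = 12), a 9.80-fold gap. The difference of −1.17 ± 0.86 percentage points had an adjusted p of 0.00670 in the exact sign-flip permutation test, with the same sign in 11 of 12 mice.

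TRBV12-2 showed the widest gap of the 5 with all rows kept, though not with near copies of larger rows left out. It had 126 productive rows, at most 17 in a tumor, and 204 disrupted rows, of which 51 came from tumor 2 of mouse 4 and 49 from tumor 1 of mouse 16. The productive share reached 0.390% at most (mouse 12, tumor 2), with a median of 0.164%. In 3 tumors no productive row was found, which allowed shares of up to 0.0802% to 0.316%. The disrupted share had a median of 1.14% and reached 13.0% in tumor 2 of mouse 4. Means were 0.159% ± 0.092 and 2.25% ± 2.37 (SD, n = 12), 14.2-fold apart, and the difference of −2.09 ± 2.32 percentage points had the same sign in 12 of 12 mice (adjusted p = 0.00293, exact sign-flip permutation test). Many of its disrupted rows were near copies of larger ones: 121 of 204 lay within 1 edit of a row with at least 20 times the count in the same library with the same V and J segments. With all such rows of all segments left out, the means were 0.289% and 2.50%, 8.65-fold apart, a smaller gap than those of TRBV26 (11.9-fold) and TRBV12-1 (9.52-fold) under the same setting. Taken as 1 segment, TRBV12-1 and TRBV12-2 had a log2 ratio of productive to disrupted share of −3.37 (adjusted p = 0.00160, exact sign-flip permutation test).

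For each segment the productive and the disrupted rearrangement with the highest share of a library's counts is printed below. Bases in capitals are those that continue neither the start nor the end shared by most rearrangements of that V and J segment, and so hold the joint itself.
TRBV12-1, productive, TRBJ2-5: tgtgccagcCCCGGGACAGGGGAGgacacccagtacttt
TRBV12-1, disrupted, TRBJ2-4: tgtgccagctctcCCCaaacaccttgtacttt
TRBV12-2, productive, TRBJ2-7: tgtgccagctctcTCGGGgaacagtacttc
TRBV12-2, disrupted, TRBJ2-7: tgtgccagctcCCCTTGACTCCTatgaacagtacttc
The productive TRBV12-1 sequence held 88 counts in tumor 2 of mouse 4, 0.0483% of the library (95% Clopper-Pearson interval 0.0387% to 0.0595%), and the productive TRBV12-2 sequence 83 counts in tumor 1 of mouse 3, 0.0420% (0.0334% to 0.0520%). Neither was found in the other tumor of its mouse, which allowed shares of up to 0.00163% and 0.00443%. Both disrupted sequences are out of frame, at 32 and 37 bases. The TRBV12-1 one held 324 counts, 0.478% (0.428% to 0.533%), in tumor 2 of mouse 3 and 125 counts in tumor 1. The TRBV12-2 one held 2100 counts, 1.15% (1.10% to 1.20%), in tumor 2 of mouse 4 and 565 counts in tumor 1. By counts, disrupted sequences made up 59.7% of all productive and disrupted counts of TRBV12-1 and 84.9% of those of TRBV12-2. They made up 36.8% for TRBV26, 18.7% for TRBV16 and 2.52% for TRBV15, compared with 2.49% for TRBV13-1, 21.3% for TRBV14, 87.4% for TRBV23 and 93.7% for TRBV24. The share of 2.52% for TRBV15 rests on 1 productive rearrangement, large in mouse 14 only, which held 83.7% of the productive TRBV15 counts. The intervals cover counting error only.

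TRBV26 (Vβ3) was the rarest of the 5. It had 51 productive and 38 disrupted rows in all 24 tumors. The productive share ran from 0 to 0.340% (median 0.0543%) and was highest in tumor 2 of mouse 19 and next highest, at 0.281%, in tumor 2 of mouse 6, with 9 rows in each. The disrupted share ran from 0 to 2.22% (mouse 17, tumor 2), with a median of 0.401%. No productive row was found in 5 tumors, which allowed shares of up to 0.100% to 0.316%, and no disrupted row in 7, which allowed up to 0.526% to 4.76%. Mean shares were 0.065% ± 0.053 and 0.566% ± 0.400 (SD, n = 12 mice), 8.65-fold apart, and the difference of −0.50 ± 0.38 percentage points had the same sign in 10 of 12 mice (adjusted p = 0.00670, exact sign-flip permutation test). The productive and the disrupted rearrangement of TRBV26 with the highest shares were these.
TRBV26, productive, TRBJ2-7: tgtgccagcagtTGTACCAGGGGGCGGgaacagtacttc
TRBV26, disrupted, TRBJ2-7: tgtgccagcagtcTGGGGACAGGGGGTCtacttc
The first held 396 counts in tumor 2 of mouse 19, 0.180% of the library (95% Clopper-Pearson interval 0.162% to 0.198%), and ranked 25 among its productive rearrangements. The second, of 34 bases and out of frame, held 24 counts in tumor 2 of mouse 3.

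TRBV15 (Vβ12) was measured in far more rows, 1160 productive and 223 disrupted. Mouse 14 held most of them. Its tumors 1 and 2 had 352 and 459 productive TRBV15 rows, 7.69% and 10.2% of all productive rows, whereas the other 22 tumors lay at or below 1.40%. The lowest productive share was 0.113% (mouse 19, tumor 2) and the median 0.554%. The disrupted share ran from 0 (mouse 7, tumor 2, with a limit of 4.76%) to 8.07% (mouse 14, tumor 2), with a median of 2.21%, and exceeded the productive share in 21 of 24 tumors. Mean shares were 1.25% ± 2.44 and 2.74% ± 1.82 (SD, n = 12 mice), 2.19-fold apart. The difference of −1.49 ± 1.38 percentage points was below 0 in 11 of 12 mice (adjusted p = 0.0117, exact sign-flip permutation test). Without mouse 14 the means were 0.550% ± 0.258 and 2.32% ± 1.14 (SD, n = 11), 4.21-fold apart, with an adjusted p of 0.00469.

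The rows of mouse 14 gathered around 1 large productive rearrangement, shown with the largest disrupted one.
TRBV15, productive, TRBJ2-4: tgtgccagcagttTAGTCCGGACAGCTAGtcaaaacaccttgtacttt
TRBV15, disrupted, TRBJ2-7: tgtgccagcagttTATAGgaacagtacttc
The first held 76938 counts in tumor 2 of mouse 14 and 55560 in tumor 1, 11.6% (95% Clopper-Pearson interval 11.6% to 11.7%) and 8.55% (8.48% to 8.62%) of the libraries, and ranked second among the productive rearrangements of tumor 2. It was also listed in 10 other tumors of 9 other mice, with 2 to 8 counts in each. It made up 83.7% of all productive TRBV15 counts. Of the 1160 productive TRBV15 rows, 735 lay within 1 edit of a row with at least 20 times the count, and with such rows of all segments left out the gap was 3.74-fold (1.01% against 3.79%). The disrupted sequence is in frame with a stop codon, and held 1106 counts in tumor 1 of mouse 4, 0.600% (0.565% to 0.636%), and 385 in tumor 2.

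TRBV16 (Vβ11) had the smallest gap by the log2 ratio. It had 852 productive rows, between 6 and 103 in a tumor, and 216 disrupted rows, at most 39. The productive share ran from 0.227% (mouse 19, tumor 2) to 3.44% (mouse 11, tumor 1), with a median of 0.928%. The disrupted share ran from 0, in 3 tumors, to 13.2% (mouse 17, tumor 1), with a median of 2.09%. In mouse 17 both tumors were high, at 13.2% and 10.0%, and the next highest value was 6.51% in tumor 1 of mouse 3. Mean shares were 1.13% ± 0.60 and 2.92% ± 2.97 (SD, n = 12 mice), 2.59-fold apart. The difference of −1.79 ± 3.02 percentage points was below 0 in 9 of 12 mice (adjusted p = 0.0164, exact sign-flip permutation test). In the planned test, on the log2 ratio with all marked rows, TRBV16 was not called (−0.055, below 0 in 6 of 12 mice, adjusted p = 0.875, exact sign-flip permutation test). Without mouse 17 it was −0.97 percentage points (adjusted p = 0.0328, exact sign-flip permutation test), a 1.83-fold gap. The 3 sequences below are the productive and the disrupted rearrangement with the highest share and the productive one found in most mice.
TRBV16, productive, TRBJ1-3: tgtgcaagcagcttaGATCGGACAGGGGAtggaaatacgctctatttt
TRBV16, disrupted, TRBJ1-3: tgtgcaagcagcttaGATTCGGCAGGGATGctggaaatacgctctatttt
TRBV16, productive in 5 mice, TRBJ1-1: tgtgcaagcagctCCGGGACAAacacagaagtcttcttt
The first held 6780 counts in tumor 1 of mouse 11, 3.16% (95% Clopper-Pearson interval 3.09% to 3.24%), where it ranked 7 among the productive rearrangements, and 1366 counts, 1.28% (1.21% to 1.34%), in tumor 2. The second, of 50 bases and out of frame, held 947 counts in tumor 2 of mouse 17 and 1018 in tumor 1. The third was found in 6 tumors of mice 3, 10, 11, 12 and 19, which cover all 4 groups, with 7 to 144 counts.

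Set against all segments, the 5 held ranks 3 to 7 among 24 by the fold between mean disrupted and mean productive share. With all rows the order was TRBV12-2, TRBV12-1, TRBV26, TRBV16 and TRBV15. With near copies left out it was TRBV26, TRBV12-1, TRBV12-2, TRBV15 (3.74-fold) and TRBV16 (2.28-fold), and TRBV15 also stood above TRBV16 without mouse 14 (4.21-fold and 2.64-fold) or without mouse 17 (2.18-fold and 1.83-fold). Above them stood TRBV23 (Vβ20), at 0.0175% of productive and 1.05% of disrupted rows, and TRBV24 (Vβ17), at 0.101% and 4.71%. These were the other segments called lower, with differences of −1.04 (adjusted p = 0.00670) and −4.61 percentage points (adjusted p = 0.00293) by the exact sign-flip permutation test. By the share of disrupted rows alone the members held ranks 12, 16, 17, 19 and 21, and by the share of productive rows ranks 15, 16, 19, 20 and 23.

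**Figure D2:**
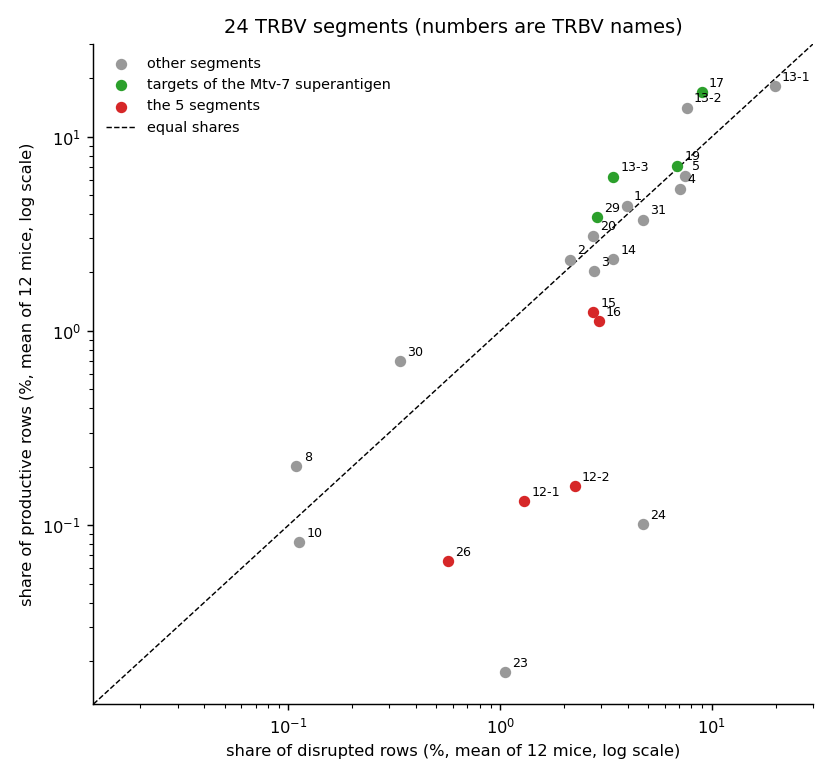
Mean share of productive rows (vertical) against mean share of disrupted rows (horizontal) for 24 TRBV segments, both in % on log scales, n = 12 mice. The 5 segments lie below the line of equal shares, between 2.19-fold and 14.2-fold.

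The superantigen of Mtv-7 is known to delete Vβ6, Vβ7, Vβ8.1 and Vβ9, and BALB/c mice do not carry it. By the same difference test none of these 4 segments was lower in productive rows. TRBV17 (Vβ9), at 17.0% ± 5.8 of productive and 8.94% ± 5.82 of disrupted rows, and TRBV13-3 (Vβ8.1), at 6.21% ± 2.10 and 3.42% ± 3.00, were higher (SD, n = 12 mice), and in all 5 of 24 segments were called higher (20.8%). TRBV19 (Vβ6) and TRBV29 (Vβ7) did not pass the test, with differences of 0.24 and 0.99 percentage points. The median difference was −1.49 percentage points for the 5 members, 1.89 for these 4 and −0.62 for all 24.

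Neighbours in the locus, whose order on chromosome 6 was taken from the RefSeq annotation of GRCm38.p6, were not called lower by the difference in percentage points, save TRBV24, which is the measured segment just before TRBV26. TRBV10, a pseudogene in the annotation and the measured segment just before TRBV12-1, held 0.082% ± 0.043 of productive and 0.112% ± 0.125 of disrupted rows (SD, n = 12 mice). It was not called by the difference (adjusted p = 0.650) and was called lower by the log2 ratio of productive to disrupted share (−1.82, adjusted p = 0.00146, exact sign-flip permutation test), which carries a pseudocount of 0.5 rows. TRBV13-1, between the TRBV12 members, held 18.2% ± 6.8 of productive and 19.8% ± 11.5 of disrupted rows, and TRBV13-2, next to TRBV12-2, 14.1% ± 6.3 and 7.60% ± 6.59. TRBV14, which precedes TRBV15, held 2.33% ± 1.15 and 3.42% ± 5.66, and TRBV17, which follows TRBV16, was higher in productive rows as given above. TRBV13-1, TRBV5 and TRBV4 came nearest to the mean log2 ratio of the members by root mean square difference over 12 mice with all marked rows, at 1.09, 1.17 and 1.17. With disrupted rows the nearest were TRBV10 (1.18), TRBV23 (2.04) and TRBV8 (2.16), and TRBV13-1 was at 2.61. TRBV8, annotated as a pseudogene, had the highest log2 ratio of the other segments with all marked rows, 1.44, on 142 productive and 8 marked rows, and TRBV13-3 with disrupted rows, 1.21.

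**Figure D3:**
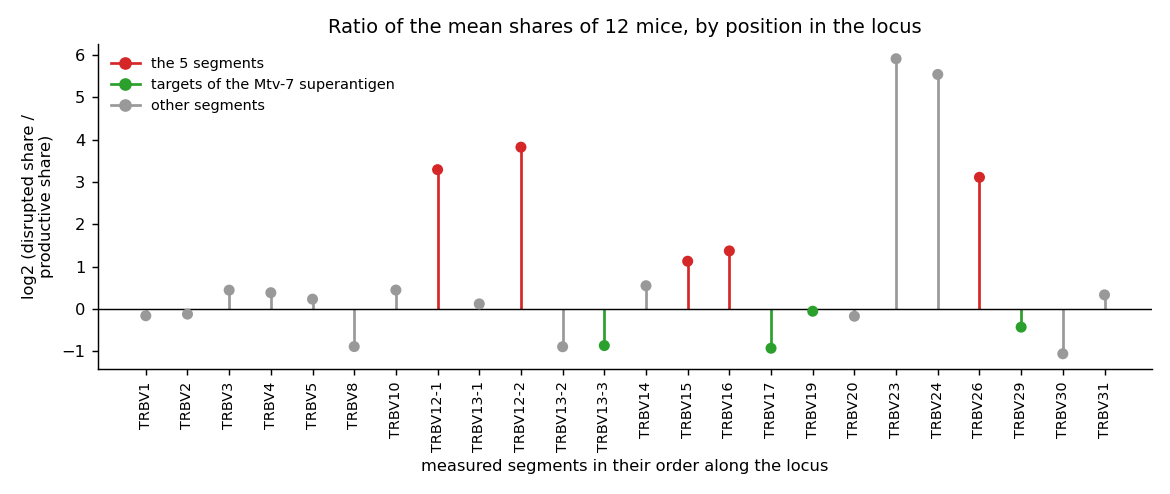
Log2 ratio of mean disrupted to mean productive share for the 24 segments in their order along the locus, n = 12 mice. Values above 0 are higher in disrupted rows, and the 5 segments stand above both Vβ8 neighbours, TRBV13-1 and TRBV13-2.

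With all marked rows in place of the disrupted ones, as in the planned test, the gaps narrowed, since most marked rows are N-only. The log2 ratio of productive to marked share was −1.87 for TRBV12-2 (adjusted p = 0.00469), −1.37 for TRBV12-1 (0.0152), −1.21 for TRBV26 (0.00586) and −0.78 for TRBV15 (0.0152), each by the exact sign-flip permutation test over 12 mice. TRBV16 did not pass, as given above. So 4 of the 5 members were called, against 6 of 24 segments (25%). With disrupted rows the log2 ratio was −3.43 for TRBV12-2, −3.08 for TRBV26, −2.96 for TRBV12-1, −1.93 for TRBV15 and −1.02 for TRBV16, and all 5 were called, against 9 of 24 (37.5%). The pseudocount in these ratios pushes rare segments down where a library holds few disrupted rows. TRBV8 was called lower by the ratio although its mean shares, 0.201% of productive and 0.109% of disrupted rows, run the other way.

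Among N-only rows the mean shares of all 5 segments lay below those of productive rows. They were 1.21% against 1.25% for TRBV15 and 0.913% against 1.13% for TRBV16. For the rarer segments they were 0.060% against 0.133% (TRBV12-1), 0.052% against 0.159% (TRBV12-2) and 0.025% against 0.065% (TRBV26). In this order they rest on 10, 13 and 4 N-only rows. The log2 ratio of TRBV26, with its pseudocount, ran the other way (−0.27). None of the 5 was called lower in productive than in N-only rows, against 1 of 24 segments (4.17%). At an unadjusted p below 0.05 only TRBV16 differed, higher in productive rows by 0.82 on the log2 scale (adjusted p = 0.0508, exact sign-flip permutation test). Of all N-only rows 92.1% lay within 1 edit of a row with at least 20 times the count, compared with 48.5% of productive and 58.5% of disrupted rows.

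The groups were compared by mouse, each as the mean of its tumors. In the DAC groups 1 tumor of each mouse was excised before the first dose. In all 3 time-separated groups the mean joins a tumor of day 9 and a tumor of day 20, against day 13 in time-matched mice. These comparisons thus cannot single out treated or later tumors. TRBV15 held 3.27% ± 4.93 of productive rows in time-matched mice, where the 3 mice lay at 0.432%, 0.423% and 8.96%, against 0.719% ± 0.336 in untreated time-separated, 0.613% ± 0.324 in low-dose and 0.401% ± 0.132 in high-dose mice (SD, n = 3). TRBV16 held 1.06% ± 0.30, 0.766% ± 0.016, 1.63% ± 0.92 and 1.04% ± 0.67 in the same order. TRBV12-1 held 0.183% ± 0.030, 0.121% ± 0.058, 0.130% ± 0.058 and 0.097% ± 0.029, and TRBV12-2 0.184% ± 0.108, 0.184% ± 0.137, 0.161% ± 0.045 and 0.107% ± 0.092. TRBV26 held 0.092% ± 0.070, 0.098% ± 0.063, 0.044% ± 0.017 and 0.028% ± 0.026. The first 2 of these means were raised by tumor 2 of mouse 6 (0.281%) and tumor 2 of mouse 19 (0.340%), with 9 productive rows in each. For TRBV12-2 and TRBV15 the mice of all groups overlapped. For each of the other 3 segments 1 of the 6 pairs of groups did not, for TRBV26 by 0.0575% against 0.0579%, so that 3 of 30 pairs lay apart, compared with 7 of 144 over all 24 segments (4.86%).

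**Figure D4:**
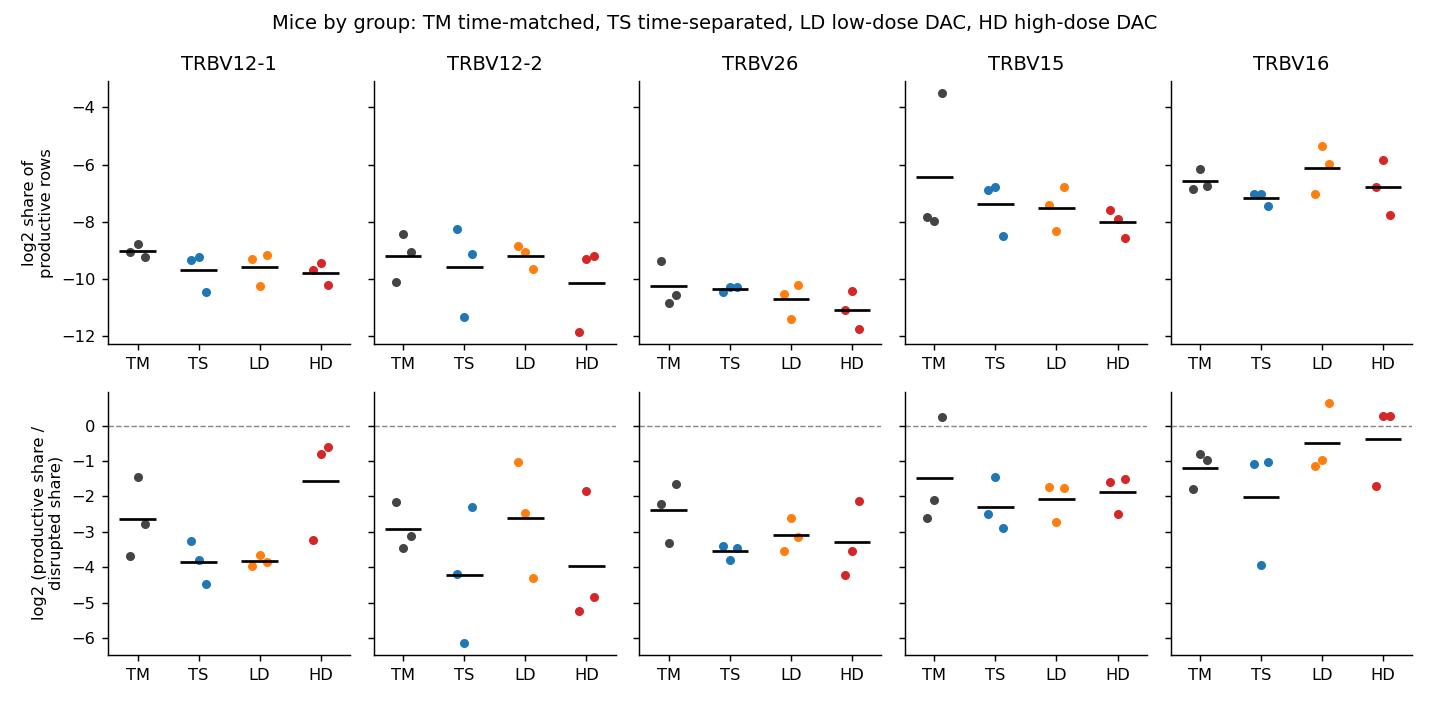
Values per mouse in the 4 groups. The upper row shows the log2 share of productive rows and the lower row the log2 ratio of productive to disrupted share, with black bars for group means (n = 3 mice). The highest TRBV15 value is mouse 14, at 8.96% of productive rows.

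No segment passed in any group comparison (0% of 24 each). For the productive share, the smallest p of a member was 0.0545 (TRBV12-1, time-matched against the 9 time-separated mice, exact permutation test), where the time-separated mice were lower by 0.65 on the log2 scale (adjusted p = 0.605). For the log2 ratio with all marked rows, TRBV12-1 had a p of 0.0214 among the 3 time-separated groups (adjusted p = 0.514, exact permutation test), and with disrupted rows 0.0571 (adjusted p = 0.457). The smallest p of a member with disrupted rows was 0.0545 (TRBV26, time-matched against the 9 time-separated mice, exact permutation test), where the ratio of the time-separated mice was lower by 0.92 on the log2 scale (adjusted p = 0.545). The disrupted share of TRBV12-1 was 0.296% ± 0.394 in high-dose mice, where mouse 16 had no disrupted TRBV12-1 row, against 1.84% ± 0.91 in low-dose and 1.70% ± 0.56 in untreated time-separated mice (SD, n = 3). Tumor 2 of mouse 7 and tumor 1 of mouse 10 had no such row either, which allowed up to 4.76% and 0.880%. Tumor 1 of mouse 7 held 1.49%. Over the 24 segments and 3 comparisons, 0 p-values were below 0.05 before adjustment for the productive share, and 2 each for the ratio with all marked and with disrupted rows. Exact permutation of 3 against 3 mice cannot give a p below 0.1, so that the comparison of time-matched with untreated time-separated mice could not pass in any case.

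The productive rearrangements of the 5 segments differed in the share of counts they held. No productive TRBV12-1 or TRBV12-2 rearrangement reached 0.1% of the productive counts of a library, and the largest held 0.0519% and 0.0446%. TRBV26 had 1 such rearrangement, at 0.192% in mouse 19. TRBV15 and TRBV16 each had productive rearrangements above 0.1% in several mice, 15 listings in 8 mice and 14 listings in 7 mice, and 3 listings each above 1%, in mice 14 and 17 for TRBV15 and mice 10 and 11 for TRBV16. The largest productive TRBV15 rearrangement of a mouse ranged from 0.00615% (mouse 12) to 12.6% (mouse 14), and that of TRBV16 from 0.0225% (mouse 6) to 3.41% (mouse 11).

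**Figure D5:**
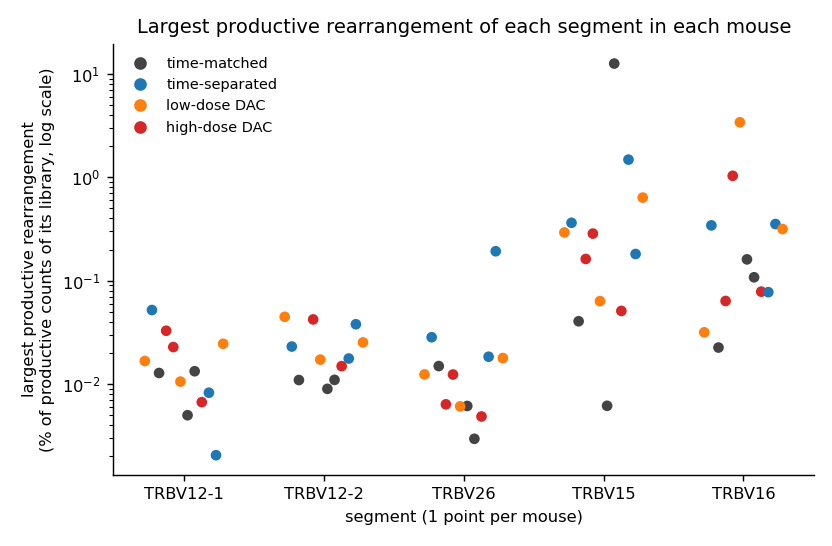
Largest productive rearrangement of each segment in each mouse, as % of the productive counts of its library on a log scale, coloured by group. All TRBV12-1 and TRBV12-2 points lie below 0.1%, and the highest points are TRBV15 in mouse 14 (12.6%) and TRBV16 in mouse 11 (3.41%).

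Counts per productive row did not separate the members from other segments. The mean log2 count of TRBV26 rows exceeded that of all productive rows of the library by 0.65 ± 0.77 (adjusted p = 0.0132, exact sign-flip permutation test) and that of TRBV16 rows by 0.52 ± 0.42 (adjusted p = 0.0117), and the other 3 members did not pass (SD, n = 12 mice, or 11 for TRBV12-2). Hence 2 of 5 members were called higher, against 10 of 24 segments (41.7%). With a minimum count of 5 the values turned, to −0.15 for TRBV26 and −0.081 for TRBV16, and neither was called. Without near copies of larger rows they were 0.52 and 0.28, with adjusted p of 0.582 and 0.0703 by the same permutation test.

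Most member rearrangements were found in 1 tumor only, and the shares found in both depended on near copies of larger rows. Leaving out near copies of larger rows, 4 of 97 productive TRBV12-1, 1 of 116 TRBV12-2, 2 of 41 TRBV26, 37 of 388 TRBV15 and 43 of 574 TRBV16 rearrangements were in both tumors of a mouse, or 4.12%, 0.862%, 4.88%, 9.54% and 7.49%, compared with 11.5% of those of the other segments. Median counts were 15, 13, 16, 6 and 17, and 14 for the other segments. For disrupted rearrangements the shares were 11.8%, 16.9%, 2.86%, 11.0% and 12.1%, compared with 9.64%. With all rows kept, the productive shares in both tumors were 3.92%, 0.80%, 4.17%, 27.1% and 9.94% in the same order, compared with 20.3% for the other segments, so that TRBV15 stood above them. The disrupted shares were then 13.0%, 12.7%, 2.70%, 19.9% and 13.7%, all below the 20.9% of the other segments. These are descriptions, and no test was made of the differences. Between mice, with all rows kept, none of the 102 distinct productive TRBV12-1, 125 TRBV12-2 and 48 TRBV26 rearrangements was shared, and 5 of 900 for TRBV15 and 4 of 768 for TRBV16 were. Some of the shared TRBV15 listings rest on few counts. The large rearrangement of mouse 14 had 2 to 8 counts in tumors of other mice, and a TRBJ2-3 rearrangement had 2 in each of its tumors. TRBJ2 segments were in 87.0% of the productive TRBV15 rearrangements, near copies of the large TRBJ2-4 one in mouse 14 included. They were in 63.7% for TRBV12-1, 64.0% for TRBV12-2, 59.4% for TRBV16 and 58.3% for TRBV26, compared with 72.4% for the other segments, and these differences were not tested.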

How the data were processed

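TCRβ libraries with unique molecular identifiers had been made from RNA of 24 whole tumors, 2 from each of 12 mice in 4 groups of 3. Per the methods, the authors called sequences with the Cogent NGS Immune Profiler (version 2.0), in which an analysis based on the identifiers was also run. The methods speak of the values retained after filtering as reads. The deposited count of each row was used without normalization. Whether reads with 1 identifier had been merged before counting, and the V segment reference and genome build, are not given in the sources used here. Alpha tables were not used. Rows with counts below 2 were left out, and segments with under 48 productive and marked rows were not tested. Rows, not counts, were compared, since expansion sets counts. Row numbers can still follow large rearrangements. Of productive rows 48.5%, and of disrupted rows 58.5%, lay within 1 edit of a row with at least 20 times the count.

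Each mouse, as the mean of its tumors, was 1 replicate; productive and non-productive rows of a library were paired. Exact two-sided sign-flip and permutation tests were used in Python 3.11.15 (numpy 2.4.6, pandas 2.3.3, scipy 1.17.1), adjusted by the Benjamini-Hochberg method at 0.05, and tested on simulated data. The smallest possible p was 0.000488 over 12 mice, 0.00455 for 3 against 9 mice, 0.1 for 3 against 3 and 0.00357 for 3 groups. Non-productive rows were all marked rows in the planned test. The split into disrupted and N-only rows and the difference in percentage points were chosen after the data were seen. The members and lists were chosen with earlier results of these data known. Other segments named were the 3 nearest to the members by log2 ratio, the one with the highest ratio, Mtv-7 targets and, chosen after their values were seen, TRBV10, TRBV23, TRBV24 and locus neighbours.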

Additional observations from a re-analysis of the deposited data

Results flagged for a closer look

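Among 60 sets of 6 tumors (5 segments, 4 groups, 3 measures), 9 values from 8 tumors stood far from the rest of their group, where chance gives about 1 in 20 sets. For the share of productive rows these were TRBV26 in tumor 2 of mouse 6 (0.281%, next 0.0749%) and in tumor 2 of mouse 19 (0.340%, next 0.0884%). For the share of disrupted rows they were TRBV12-1 in tumor 2 of mouse 17 (3.33%, next 1.73%) and in tumor 1 of mouse 7 (1.49%, next 0.287%), TRBV12-2 in tumor 2 of mouse 4 (13.0%, next 4.81%) and in tumor 1 of mouse 16 (8.84%, next 2.50%), TRBV15 in tumor 1 of mouse 4 (7.11%, next 3.07%) and TRBV26 in tumor 2 of mouse 17 (2.22%, next 0.767%). For the log2 ratio of productive to disrupted share it was TRBV15 in tumor 2 of mouse 11 (−3.56, next −1.96). The 6 tumors of a group come in pairs from 3 mice and are not independent.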

How the results depend on the processing

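The direction of TRBV12-1, TRBV12-2, TRBV15 and TRBV26 in productive against marked rows held under all alternatives run, and TRBV12-2 and TRBV26 stayed past the threshold in each. TRBV12-1 lost the threshold with tumor 2 only (−1.27), without the time-separated group (−1.07) and without the low-dose DAC group (−1.09), and TRBV15 with a minimum count of 1 (−0.41), thinning to 72013 counts (−0.59), tumor 2 only (−0.68), the pairing of rows removed (no replicate block, −0.78, adjusted p = 0.404 by permutation), and without the time-separated (−0.52) or low-dose DAC group (−0.74). TRBV16, not called with all marked rows, turned positive with a minimum count of 5 (0.32) or 10 (0.31), thinning (0.41), tumor 2 only (0.52) and without the time-matched (0.060) or time-separated group (0.25), and passed as lower with a minimum count of 1 (−0.60), out-of-frame rows (−1.31) and tumor 1 only (−0.63). It also passed with disrupted rows (−1.02), also with TRBV12-1 and TRBV12-2 merged, with rows under another V left out (−1.02), without pairing (−1.02, adjusted p = 0.0408 by permutation), with near copies left out (−1.06), a minimum count of 5 (−1.05) and counts in place of rows (−1.65). With 1 mouse left out, over both kinds of non-productive rows, TRBV16 lay between −1.17 and 0.19 and TRBV12-1 between −3.18 and −1.23. TRBV12-2 lay between −3.64 and −1.62, TRBV15 between −2.13 and −0.68 and TRBV26 between −3.21 and −1.13. These ranges join both kinds of rows, which differ also with all mice kept (TRBV12-1 −1.37 with marked and −2.96 with disrupted rows). The 6 segments called lower became 3 without the time-separated or the low-dose DAC group, 12 with disrupted rows and near copies left out and 10 with disrupted rows and a minimum count of 5. With 1 mouse left out they were 6 or 7, against 8 or 9 where disrupted rows, with 9 called over all mice, were used. Segments with more counts per productive row fell from 10 to 5 with a minimum count of 5, and were 9 to 11 with 1 mouse left out. At that minimum count TRBV12-1 (−0.24), TRBV12-2 (−0.24), TRBV16 (−0.081) and TRBV26 (−0.15) turned, and without near copies TRBV12-1 (−0.18) and TRBV12-2 (−0.12) did. Group comparisons called 0 segments under every alternative. By counts, log2 differences of the productive share from the time-matched mice turned for TRBV16 (0.62 with 9 mice, 0.33 with the untreated ones) and TRBV26 (0.68, untreated). With 1 mouse left out they ranged from −0.29 to 0.10 (TRBV16, 9 mice), −1.97 to 0.26 (TRBV15, 9 mice), −1.72 to 0.51 (TRBV15, untreated), −1.03 to 0.50 (TRBV12-2, untreated) and −0.36 to 0.36 (TRBV26, untreated), and those of the ratio from −0.82 to 0.37 (TRBV12-2, 9 mice), −0.68 to 0.29 (TRBV12-1, 9 mice) and −1.08 to 0.32 (TRBV16, untreated). The cause of these changes was not tested. Few disrupted rows per library, 63 at the least, limit the rare segments.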
